A study of Bos taurus with 2 samples.

Results

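The extracellular matrix genes described here are the collagens, the laminins, the integrin subunits with a numbered name and fibronectin (FN1). They were taken by name from the probes of a bovine Agilent array: a name of COL and a digit, LAMA, LAMB or LAMC and a digit, ITGA or ITGB and a digit with the ITGB1BP names left out, or FN1. The rule took 66 of the 32429 gene names on the array, measured by 204 of its 51282 probes and 212 of its 61657 non-control spots. All 66 names were found in the current cattle gene table, 65 as a symbol and COL4A3BP as an older name of CERT1. COL4A3BP encodes a ceramide transporter and ITGB3BP a centromere protein, so both are given apart from the matrix genes.

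Testis tissue of adult crossbred bulls, which were Holstein Friesian crosses, was compared with testis tissue of adult Zebu bulls of the Tharparkar breed. RNA of several bulls went into 1 pool per group, and a single Cy3-labelled array was hybridised with each. There is therefore 1 measured value per probe and group, no spread between animals, and no test. Differences are given on the log2 scale as crossbred minus Zebu, after the 75th percentile of each array was set to 0, and a difference of 1.5 (2.83-fold) in either direction was used as the threshold. The scanner software called 72.0% of the non-control spots well above background in crossbred and 74.3% in Zebu. The SD among spots of the same probe was 0.29 in crossbred and 0.18 in Zebu, which makes 0.34 for a difference between arrays (5960 probes). Different probes of the same gene differed more, with an SD of 0.51 over 8185 genes and 0.48 over 38 genes of the set, and a difference of a single probe should be read against that value.

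Collagens are triple helices of alpha chains in which glycine recurs at a regular step. Fibrillar collagens form the fibres of connective tissue, collagen IV and the laminins form the sheets of basement membranes, and integrins are the paired alpha and beta receptors by which cells hold on to both. In the testis a basement membrane and layers of peritubular cells surround each seminiferous tubule, and Sertoli cells and spermatogonia rest on that membrane, while the Leydig cells and vessels lie in the interstitial matrix outside it. In whole tissue, fewer cells of a type and less RNA per cell cannot be told apart.

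The glycine repeat can be seen in the probes. Glycine codons begin with GG, so a coding stretch of the triple helix shows the motif GGNNNNNNN repeated in register, with GG every 9 bases. At least 4 such GG in register were found in 18 of 111 collagen probes (16.2%), in 0 of the 93 other probes of the set, and in 0.154% of all 51279 probes with a value. On the opposite strand the counts were 3 collagen probes, 1 of the other probes of the set and 60 of all probes. The probes below are some of the 18 collagen probes with the motif, shown because they read the triple helix itself. Each was well above background in crossbred or in Zebu. Others are not shown, among them a COL9A3 probe above background on neither array and a COL2A1 probe that differed by 0.81. The capitals mark the GG in register.

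COL1A1 A_73_P358501: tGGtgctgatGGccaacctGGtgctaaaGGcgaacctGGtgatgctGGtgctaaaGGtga
COL1A1 A_73_P367886: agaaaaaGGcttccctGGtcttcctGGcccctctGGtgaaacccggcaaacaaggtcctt
COL1A2 A_73_P368131: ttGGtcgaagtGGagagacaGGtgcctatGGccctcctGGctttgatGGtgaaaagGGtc
COL3A1 A_73_P450934: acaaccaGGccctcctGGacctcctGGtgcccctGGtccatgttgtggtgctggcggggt
COL4A1 A_73_P108816: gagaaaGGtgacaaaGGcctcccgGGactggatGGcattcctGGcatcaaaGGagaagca
COL6A2 A_73_P101171: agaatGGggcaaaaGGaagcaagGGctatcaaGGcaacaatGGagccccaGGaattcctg
COL11A1 A_73_P108211: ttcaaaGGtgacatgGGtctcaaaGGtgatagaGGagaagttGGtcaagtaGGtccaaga

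In the array annotation (build Btau_3.1) these probes lie at chr19:37646195-37646474 and chr19:37647299-37647502 for COL1A1, chr4:12047111-12047170 for COL1A2, chr2:7743600-7743659 for COL3A1, chr12:82969811-82969870 for COL4A1, chr1:148774362-148774705 for COL6A2 and chr3:43322474-43324157 for COL11A1. The span is longer than the 60 bases of a probe for 4 of them. In COL1A1 A_73_P367886 the register held for 4 GG, and the next GG followed after 10 bases in place of 9. The same was seen in COL3A1 A_73_P450934, with the next GG after 12 bases.

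Each gene is represented by its probe with the highest value on either array. Of the 66 genes, 65 were detected, that is, well above background by that probe in crossbred or in Zebu, and ITGA2, the alpha chain of a collagen receptor, was in neither. The representative probe was above background in both for 59 genes, in crossbred alone for 4 and in Zebu alone for 2; in 2 of the genes with a dim side, COL11A1 and ITGB3, another probe was above it on both arrays. By the representative probe 5 genes passed 1.5 upward in crossbred testis and 6 passed it downward, against 7.36% higher and 3.09% lower among all 24764 gene names detected. The share that was higher (7.69% of 65) was close to the background, and the share that was lower (9.23%) was above it. These are small counts. With normexp background correction both became 2 (3.08%), against 4.28% higher and 0.739% lower of all names, and with the mean of all detected probes of a gene 2 were higher and 1 lower (1.54%, against 1.82% of all names lower). Below the threshold the set was shifted downward. The median difference was -0.24 over the 65 detected genes, with dim sides entered at their bound, against -0.05 over all detected names. Among the genes above background on both arrays, 64.4% of 59 were below 0, against 52.2% of 22812 names; 44.1% had a difference of -0.5 or less, against 24.6%, and 20.3% had one of -1 or less, against 7.20%. At the other end 15.3% had a difference of 0.5 or more, against 23.7% of all names.

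**Figure D1:**
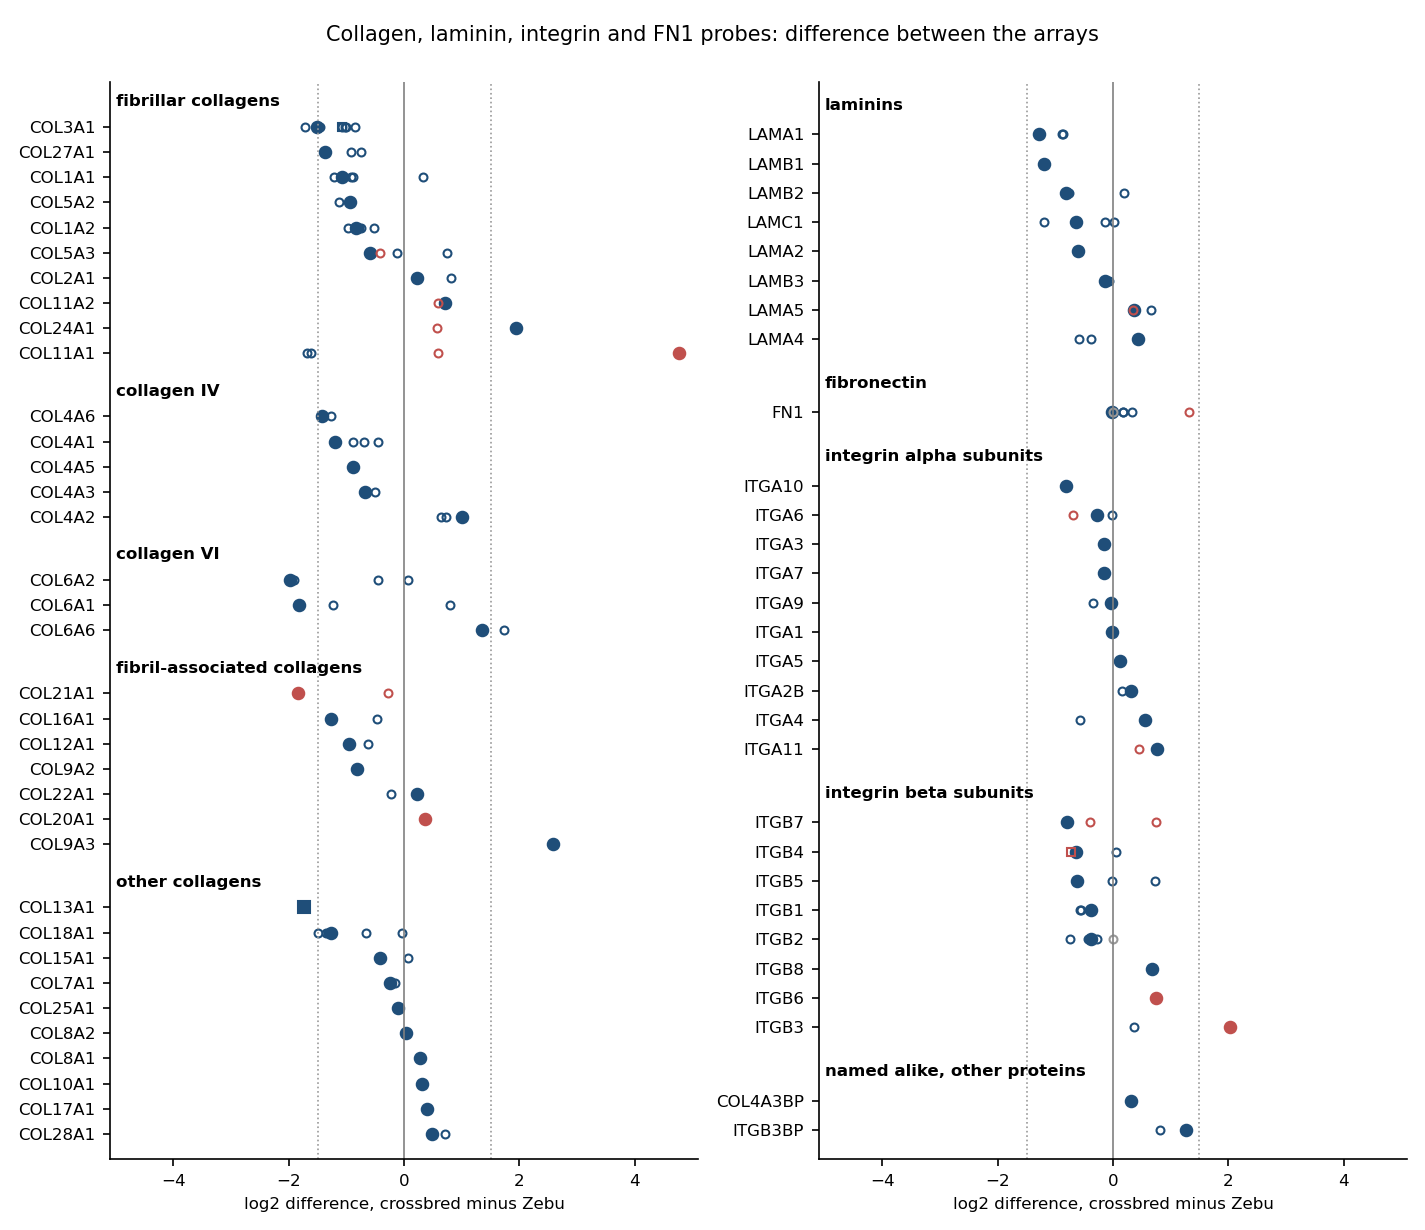
Log2 difference between the arrays (crossbred minus Zebu, horizontal axis) of detected probes, by gene and role. Filled symbols are the representative probes and open symbols the others; blue was above background on both arrays, red is a bound because the probe was dim on 1 array, grey allowed no fold, squares have a spot in the dark patch, and dotted lines mark the threshold of 1.5. All 10 COL3A1 probes lie below 0 and all 3 COL4A2 probes above it, while the COL11A1 probes lie on both sides.

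The shift was larger in the collagens and laminins than in the integrins. The collagens had a median of -0.59 (35 genes), the laminins of -0.65 (9 genes) and the integrins of -0.09 (18 genes). Signs of the medians were the same under each scaling tried, and normexp brought the collagen median to -0.31; the mean of all detected probes of a gene brought it to -0.20. Counted by probe, 59 of 82 collagen probes above background on both arrays were lower in crossbred, as were 14 of 19 laminin probes and 20 of 29 integrin probes. These are 72.0%, 73.7% and 69.0%, against 53.5% of all 36443 such probes, so that the families differed in the size of the shift and hardly in the share of lower probes. With every detected probe counted for itself, 7 of 159 were past the threshold upward and 13 downward, against 6.14% and 2.99% of all 39804 detected probes. The median over the probes on both arrays was -0.75 for collagens, -0.60 for laminins and -0.16 for integrins.

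**Figure D2:**
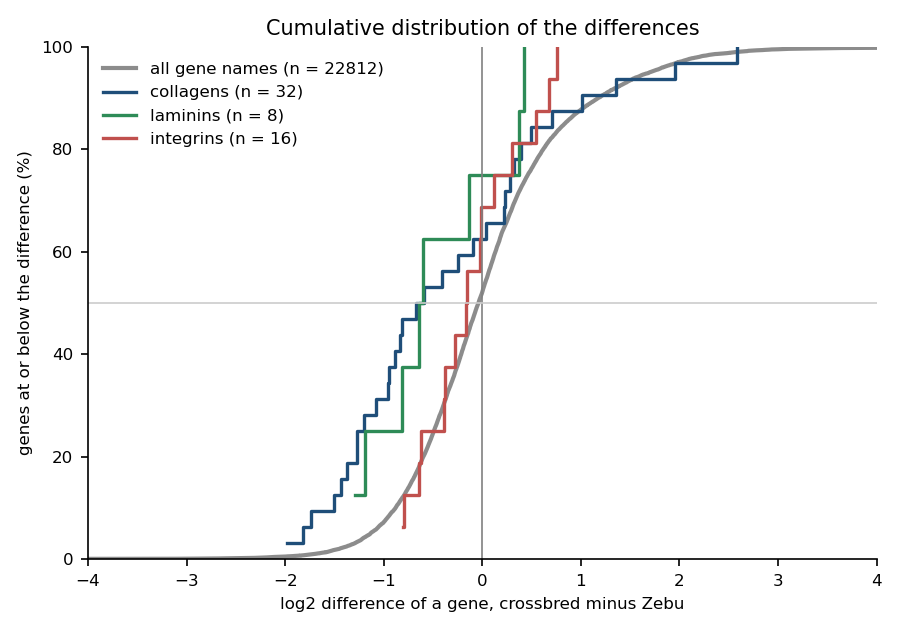
Share of genes (vertical axis, percent) at or below each log2 difference (horizontal axis) for genes above background on both arrays: all 22812 gene names in grey, 32 collagens in blue, 8 laminins in green and 16 integrins in red. The collagen and laminin lines run left of the grey line over their lower part. The integrin line has no gene below -0.81, but lies above the grey line at 0, where 11 of 16 integrins are lower, against 52.2% of all names.

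Among the fibrillar collagens, COL1A1, COL1A2, COL3A1 and COL5A2 were lower in crossbred testis. COL3A1, the chain of the reticular fibres found around tubules and vessels, had a log2 value of 1.07 in crossbred and 2.58 in Zebu, a difference of -1.51 that lies just past the threshold. It fell short of it with normexp (-1.43), with the mean of its probes (-1.27) and with the GC adjustment described below (-1.34). All 10 of its probes were lower, from -0.85 to -1.71. The probes are not independent of each other: the representative probe shares 44 bases with A_73_107812, which gave -0.85, so that overlapping probes of this gene still differed. A COL3A1 spot, that of the printed probe A_73_P450934, lies in the dark patch of the crossbred array described below and gave -1.07.

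COL1A1 and COL1A2 encode the chains of collagen I, the main fibre of connective tissue. COL1A1 stood at 1.46 in crossbred and 2.54 in Zebu, a difference of -1.08. Of its 5 probes on both arrays 4 were lower (-0.89 to -1.21), and the exception at 0.33 is the printed A_73_P367886. COL1A2 stood at 1.85 in crossbred and 2.68 in Zebu, and its 5 probes lay between -0.52 and -0.97. COL5A2, a chain that sets the width of collagen I fibres, differed by -0.94 and -1.13 in its 2 probes. COL3A1 and COL5A2 are next to each other in the cattle gene table with no protein-coding gene between them. Over the 10 fibrillar genes the median was -0.71, and 28 of 35 probes were lower; with the mean of each gene's detected probes the median was -0.43.

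The remaining fibrillar collagens were not uniform. COL27A1 was lower in its 3 measured probes, from -0.74 to -1.37. The largest difference of the whole set came from COL11A1, a chain known from cartilage: the printed probe A_73_P108211 had a value of -1.17 in crossbred and was dim in Zebu (not well above background), which gives at least 27.2-fold higher in crossbred. Such a bound sets the bright value against the lowest value well above background on the dim array or the dim value, whichever is higher. The other COL11A1 probes were divided. A further probe, also dim in Zebu, gave at least 1.51-fold higher, while A_73_120227 and A_73_P320621, measured on both arrays, were lower by -1.68 and -1.62. The direction of COL11A1 therefore depends on the probe, and the median of the 18 spots nearest to A_73_P108211 was 0.34. COL24A1, a minor fibrillar chain, was higher with -3.12 in crossbred and -5.07 in Zebu, a difference of 1.95; its second probe was dim in Zebu and gave at least 1.48-fold higher. Normexp brought COL24A1 to 1.04, short of the threshold. The mean of its probes was at least 1.26, since the dim probe entered at its bound, and does not settle whether the threshold was passed.

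Collagen IV, the network of basement membranes, moved apart within its main molecule. COL4A1 and COL4A2 encode the chains that are wound together in the common form, and the genes are neighbours that share a promoter region. COL4A1 stood at 0.05 in crossbred and 1.25 in Zebu, a difference of -1.20, and its 4 probes were all lower (-0.45 to -1.20). COL4A2 stood at 0.06 in crossbred and -0.94 in Zebu, a difference of 1.01, and its 3 measured probes were all higher (0.64 to 1.01), though the lower 2 share 26 bases. The ranges of these genes do not overlap. Both signs held under each scaling tried, though some of these shift all genes alike and are no separate check.

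The other collagen IV chains were lower. COL4A6 differed by -1.43 and -1.26 in its 2 probes, COL4A5 by -0.89, and COL4A3 by -0.67 and -0.50. COL4A5 and COL4A6 are also neighbours, and these were lower together. COL4A3 and COL4A5 are known as the genes of Alport syndrome, in which the kidney's basement membrane fails. The median of the 5 collagen IV genes was -0.89.

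**Figure D3:**
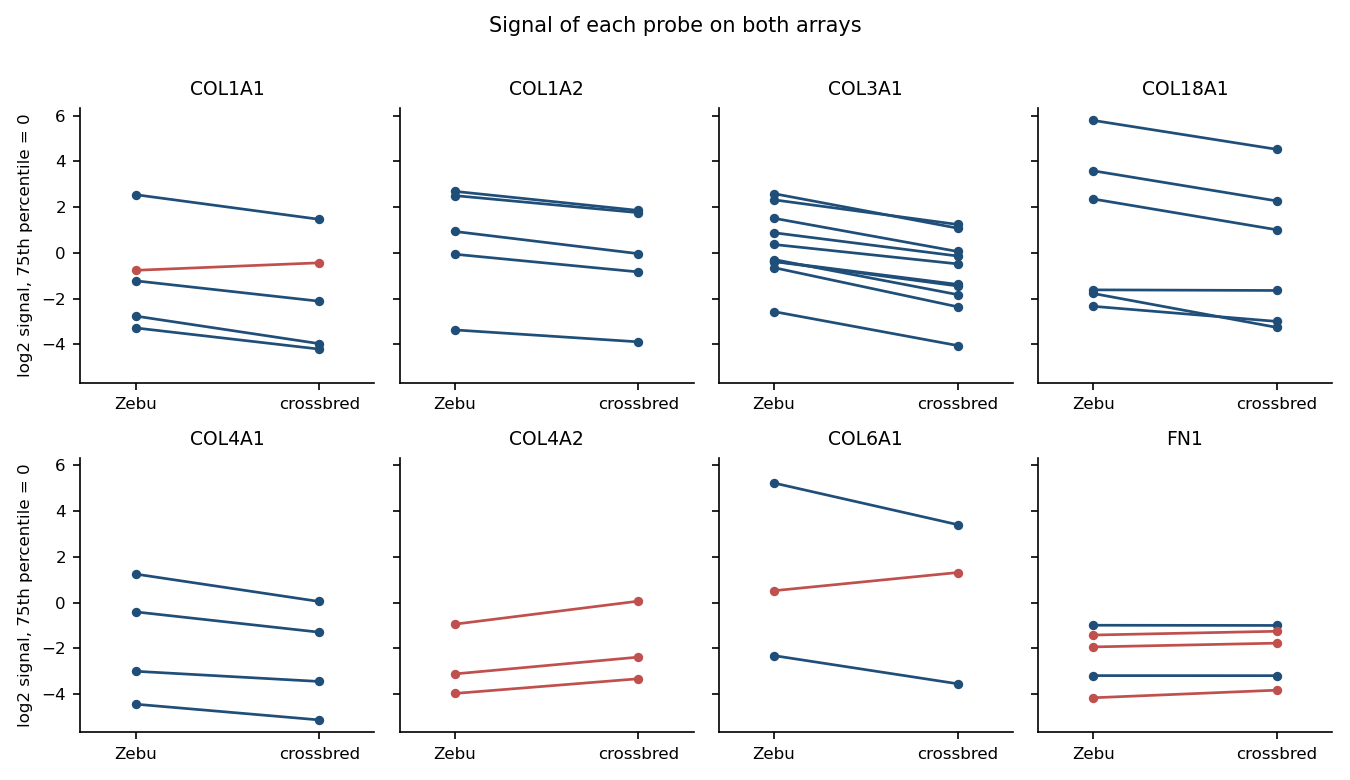
Log2 signal (vertical axis, 75th percentile of each array at 0) of each probe above background on both arrays, joined between the Zebu and the crossbred array, for 8 genes. Blue lines are lower and red lines higher in crossbred: COL4A1 has 4 blue and COL4A2 3 red lines, COL1A1 and COL6A1 each have 1 red line, and the FN1 lines are nearly level.

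Collagen VI makes beaded filaments that tie cells to the surrounding matrix. COL6A1 stood at 3.41 in crossbred and 5.23 in Zebu, a difference of -1.82 (3.53-fold lower), and COL6A2 at -1.67 and 0.31, a difference of -1.98 (3.94-fold lower). These neighbouring genes encode chains of the same molecule. Their probes disagreed by 1.5 or more: COL6A1 had a second lower probe at -1.23 and another that was higher by 0.79, and COL6A2 had probes at -1.90, -0.45 and 0.07. The printed COL6A2 probe is the one at -0.45. Averaged over all detected probes, COL6A1 came to -0.75 and COL6A2 to -1.07, short of the threshold. COL6A6, a later found chain of the family, was higher by 1.36 and 1.73 in its 2 probes.

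The fibril-associated collagens, which sit on the surface of fibres, had a median of -0.82 over 7 genes, which normexp brought to -0.32. COL9A3 went against it with -0.36 in crossbred and -2.94 in Zebu, a difference of 2.58 (5.98-fold higher) that is the largest measured on both arrays in the set and rests on 1 detected probe. COL22A1 was also above 0 by its representative probe (0.23), with -0.23 in its other probe. COL20A1, dim in Zebu, was at least 1.29-fold higher. COL21A1 was dim in crossbred with either of its detected probes, which gave at least 3.57-fold and 1.21-fold lower. COL16A1 differed by -1.27 and COL12A1 by -0.95.

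Among the network, anchoring, multiplexin and transmembrane collagens the median was -0.03 over 10 genes, and it was above 0 with normexp (0.01), with quantile normalization (0.02), without the spots of the patches described below (0.03) and with the GC adjustment (0.03). COL18A1, the parent of endostatin and a part of basement membranes, was lower in all of its 6 probes, from -0.03 to -1.48. Its representative probe has 2 spots and stood at 4.52 in crossbred and 5.79 in Zebu, a difference of -1.27. COL15A1, the related multiplexin, differed by -0.41 and 0.07. COL13A1, a transmembrane collagen, differed by -1.74, but its only probe lies in the dark patch of the crossbred array, where the median of the 18 nearest spots was -2.40. No other member spot lay where that median was beyond 1.

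The dark patch of the crossbred array and the bright patch are areas marked by their place. In the dark patch the detected spots had a median difference of -1.37, and in the bright patch of 1.29. The dark patch held 3 of the 212 member spots, of COL13A1, COL3A1 and ITGB4, and the bright patch held 0. The ITGB4 probe A_73_113644 has 2 spots, and with 1 of them in the patch these had an SD of 1.48 on the crossbred array. Without the spots of both patches, 5 genes were higher and 5 lower, since COL13A1 had no spot left. The share of all names past the threshold is not given for this setting.

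Laminins are trimers of an alpha, a beta and a gamma chain. LAMA1, LAMB1 and LAMC1 together form laminin-111, the classic basement membrane laminin, and all 3 were lower by their representative probe. LAMA1 stood at -0.12 in crossbred and 1.17 in Zebu, a difference of -1.29, and its other probes gave -0.86 and -0.88. LAMB1 differed by -1.19 in its 1 detected probe. LAMC1 stood at 2.50 in crossbred and 3.15 in Zebu, a difference of -0.65; a second probe gave -1.20, and a pair that shares 45 bases gave 0.02 and -0.15.

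The other laminin chains varied. LAMB2 differed by -0.82 and -0.77 in its brighter probes and by 0.20 in the dimmest, and LAMA2, the muscle laminin chain, by -0.60. LAMA4, a chain of vessel walls, had probes at 0.43, -0.60 and -0.37, and LAMA5 was higher in both measured probes, by 0.37 and 0.66. LAMB3 differed by -0.14 and -0.08.

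FN1, the fibre-forming glycoprotein that integrins and collagens bind, did not share the shift. Its representative probe differed by -0.01 and stood at -0.99 in Zebu. The 5 probes above background on both arrays gave differences between -0.01 and 0.33 (2 of them share 58 bases), which is within the spread between spots of a probe. A further probe was dim in Zebu and gave at least 2.50-fold higher.

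The integrins lay on both sides of 0, with no alpha subunit past the threshold. ITGB1, the beta chain shared by most receptors for collagen, laminin and fibronectin, stood at 3.24 in crossbred and 3.62 in Zebu, a difference of -0.39, and its other probes gave -0.56 and -0.57. Of the alpha partners for these ligands, ITGA1 differed by -0.02, ITGA3 by -0.16, ITGA5 by 0.12, ITGA6 by -0.27, ITGA7 by -0.16 and ITGA9 by -0.03. Each of these is smaller than the SD of 0.51 between probes of a gene, though a further ITGA6 probe, dim in crossbred, gave at least 1.62-fold lower. ITGA10 at -0.81, ITGA11 at 0.76 and ITGA4 at 0.55, with -0.57 in its other probe, lay beyond that SD. The sign of ITGA1 turned with normexp and quantile normalization. The median of the 10 detected alpha subunits was -0.02, and it was 0.01 with quantile normalization and 0.08 with the GC adjustment.

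The 8 beta subunits had a median of -0.38, and 11 of their 15 probes on both arrays were lower; with the mean of each gene's detected probes the median was -0.06. ITGB2, the leukocyte chain, differed by -0.38 and was lower in all 4 measured probes (-0.28 to -0.74), 2 of which share 54 bases. ITGB4, the chain of hemidesmosomes, differed by -0.64 in its representative probe, with 0.06 in another. ITGB5 probes spread from -0.62 to 0.73. ITGB3 and ITGB6, both of which pair with the alpha V subunit, were counted as higher. The ITGB3 probe was dim in Zebu and gave at least 4.09-fold higher, whereas the other ITGB3 probe, measured on both arrays, differed by 0.36. ITGB6 gave at least 1.67-fold higher, and so its bound does not reach the threshold. For the other 10 of the 11 genes past the threshold the difference or bound is 1.5 or more.

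Agreement among probes of a gene was read against all genes. Of the 38 genes of the set with 2 or more probes above background on both arrays, 18 (47.4%) had all of them lower, against 37.5% of 8185 names, and 7 (18.4%) had all of them higher, against 29.4%; ITGB3BP, which is not a matrix gene, is 1 of these 7. Probes on both sides of 0 were found in 34.2% of the 38 genes and 33.2% of all, and probes 1.5 or more apart in 7.89% and 7.61%. With 4 or more such probes, 5 of 9 genes had all of them lower, against 30.7% of 1259 names. These 5 are COL1A2, COL3A1, COL4A1, COL18A1 and ITGB2.

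Base composition ran with the differences across the array, and signal level did so only within the set. Over all probes above background on both arrays the median difference was -0.20 at up to 40% GC, -0.03 from there to 50%, and 0.07 from 50% to 60%. The probes of the set had -0.45 (44 probes), -0.53 (52 probes) and -0.23 (41 probes) in the same ranges. With the median of all probes of the same GC content subtracted, a step added after seeing the data, the median of the set was -0.16. With that step 5 genes were lower in place of 6, which is 7.69% of the detected genes of the set, against 2.58% of all names. The share that was higher was also 7.69%, against 7.82% of all names. By mean log2 value, the probes of the set were near 0 among the dimmest (-0.02 for 31 probes up to -4), and reached -0.97 between 0 and 2 (17 probes) and -1.08 above 2 (9 probes). Over all probes these values were -0.03, -0.11 and 0.03. The collagen probes with the triple-helix motif had a median of -0.45 (9 probes on both arrays, 7 lower), and those without it -0.82 (73 probes, 52 lower).

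The lists of other matrix genes gave a mixed account, and their counts past the threshold are to be read against the 7.36% higher and 3.09% lower of all names. Among 12 further basement membrane components the median was -0.66, with 7 genes below 0 and 5 above it. Past the threshold, 1 gene was higher and 0 lower. That gene is NID2, a nidogen that links laminin to collagen IV, with 0.51 in crossbred and -1.46 in Zebu, a difference of 1.96; its second probe gave 0.47, and the related NID1 differed by -1.06. SPARC, a collagen-binding glycoprotein with 6 measured probes, was lower in all of them (-0.53 to -1.29). The heparan sulfate proteoglycan AGRN differed by -1.40 and HSPG2 by 0.09, and the collagen IV cross-linking enzyme PXDN by -0.68.

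Of 19 other interstitial matrix components, 2 were higher and 1 lower, with a median of -0.45. VTN, vitronectin, an adhesive plasma and matrix protein, was higher by 3.07 in its 1 measured probe. POSTN was dim in Zebu and gave at least 1.59-fold higher. FMOD, a proteoglycan that binds collagen fibres, was lower by -1.56. DCN and MGP, a fibre-binding proteoglycan and an inhibitor of calcification, differed by -0.86 and -1.17, BGN by -0.59, and the elastic fibre gene FBN2 by 0.24.

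Of 24 collagen-modifying and processing enzymes on the array 21 were detected, with a median of -0.20. LOXL1 was higher by 1.5 and LOXL3 lower by -1.70; both are lysyl oxidases, which cross-link collagen and elastin. P4HB differed by -0.24, PPIB by -0.40, PLOD1 by 0.31 and SERPINH1, the collagen chaperone, by 0.34, so the enzymes with the brightest probes lay between -0.40 and 0.34. BMP1, ADAMTS3 and ADAMTS14, proteases that trim procollagen, were above background in neither group. Among 24 focal adhesion genes and other matrix receptors on the array the median was -0.19. DDR2, a receptor tyrosine kinase for fibrillar collagen, was higher by 2.35 in its 1 measured probe, while its relative DDR1 differed by -1.14 in its representative probe, the lowest of 5 that reached up to 0.56. CD151, a tetraspanin partner of integrins, differed by 0.61, ZYX by -0.51, FERMT2 by -0.62, and LIMS2, whose representative probe has a spot in the bright patch, by 0.49.

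The integrin alpha subunits named with a letter, which the rule leaves out, had 4 of 5 names detected and a median of 0.48. ITGAV, the alpha V chain, differed by 1.40, and its 4 probes spread from -1.11 to 1.62. ITGAE differed by 0.28, ITGAD by 0.67 and ITGAL by -0.76.

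Markers of testicular cell types moved between the arrays too. Sertoli cells and peritubular cells make much of the tubular basement membrane. All 8 detected Sertoli markers of 9 on the array were lower, with a median of -0.99, and their summed signal, in multiples of the 75th percentile, was 154 in crossbred and 241 in Zebu; CLU was the brightest, at -0.48, DHH was past the threshold at -1.53, and INHBB was above background on neither array. INHA, CLDN11 and AMH differed by -1.08, -0.58 and -1.39. All 10 peritubular and smooth muscle markers were lower, with a median of -0.73 and a summed signal of 48.9 against 80.4, ACTA2 being the brightest at -0.99. MYLK, MYH11 and MYL9 differed by -0.70, -0.50 and -0.32.

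The 8 fibroblast markers had a median of -0.60 and sums of 12.3 and 12.8, or 3.15 and 5.38 without the brightest, CLEC3B, which differed by 0.31. TCF21 was past the threshold at -1.61 and PDGFRA differed by -1.08. The 8 Leydig markers had a median of -0.51 and sums of 91.4 and 135; HSD3B1 and CYP17A1 were lower by -1.77 and -1.68, and the brightest, INSL3, differed by -0.44, while HSD17B3 was higher by 0.93 and CYP11B1 differed by 0.01.

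Endothelial and macrophage markers did not share the shift. The 10 endothelial markers had a median of -0.06 and sums of 9.17 and 7.07, and CLDN5, the brightest, was higher by 1.54. Without CLDN5 the sums were 4.24 and 5.37. Of the endothelial markers above background on both arrays 5 were higher and 4 lower, and the lowest were EGFL7 and KDR at -0.45 and -0.38. The 8 macrophage markers had a median of 0.06 and sums of 29.8 and 21.1, with AIF1, the brightest, higher by 1.95. Without AIF1 the sums were 21.3 and 18.9, and of the macrophage markers above background on both arrays 4 were higher and 3 lower. Germ cell markers were higher. All 13 spermatid markers on the array were higher in crossbred, 9 of them past the threshold (against 7.36% of all names), with a median of 1.71 and sums of 860 and 399; ODF2, the brightest, differed by 1.22 and PRM1 by 0.36. The 6 spermatocyte markers had a median of 0.40 and sums of 33.2 and 25.9, TEX101 being the brightest. Of 5 platelet and blood names, PF4, PPBP and HBB were above background on neither array, and HBA, the brightest, was lower by -2.15; the sums were 0.56 and 2.37. Tubular somatic markers were thus lower and spermatid markers higher on the array on which most collagens and laminins were lower. The part of these marker shifts in the matrix values was not tested.

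**Figure D4:**
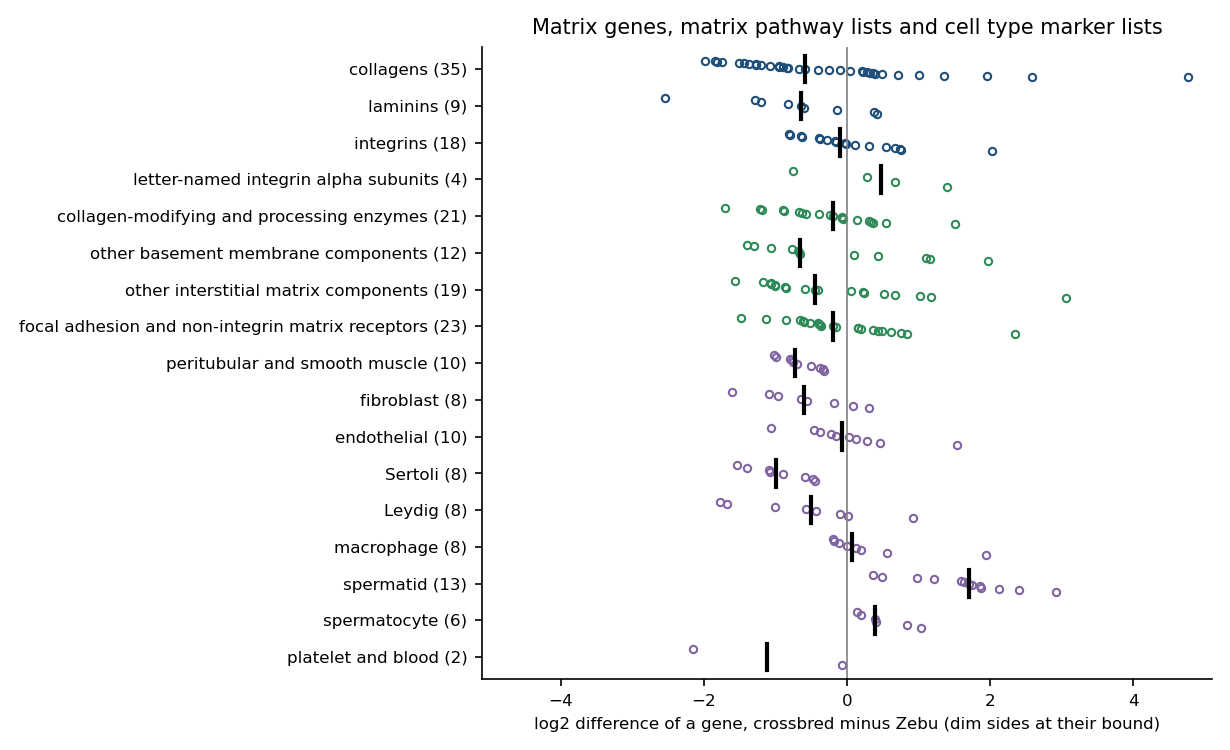
Log2 difference (crossbred minus Zebu, horizontal axis) of each detected gene in the matrix families (blue), the other matrix lists (green) and the cell type marker lists (purple); black bars are medians and the number of genes is in brackets. The Sertoli genes and the peritubular genes all lie below 0 and the spermatid genes all above it, and the medians of collagens and laminins lie at -0.59 and -0.65.

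COL4A3BP and ITGB3BP, the members that are not matrix genes, were both higher. COL4A3BP differed by 0.32, and the 2 ITGB3BP probes by 1.27 and 0.82. Leaving both out, an alternative chosen after seeing the data, moved the median of the set to -0.27.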

How the data were processed

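Testis RNA of crossbred and Zebu bulls, pooled per group, was measured on 1 array each. The authors deposited scanner intensities written by Agilent Feature Extraction 11.5.1.1 and a table of log2 values. The deposited log2 values had a median of -3.00 in crossbred and -3.01 in Zebu, followed the values computed here (r = 0.999 in crossbred, 1.000 in Zebu, across probes), and served as an alternative. The probe positions are those of build Btau_3.1, per the file headers.

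From the log2 of the processed signal, averaged over a probe's spots, the 75th percentile over an array's non-control probes was subtracted, as in the study's methods. Of the spots, 13 marked as outliers were left out; no non-control spot was saturated. The threshold was a log2 difference of 1.5, with the brighter array well above background. A probe dim on 1 array has only a bound. Calls were tested on simulated data, in which bright genes were given differences past the threshold. That test does not bear on calls near the threshold or with a dim side. Python 3.11.15 with pandas 2.3.3 was used, and limma 3.58.1 in R 4.3.3 for normexp.

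Named are FN1, members past the threshold, with a spot in a marked patch or with probes 1.5 or more apart, and a list of main chains and subunits; of other lists, genes past the threshold (spermatid genes left out) and up to 4 with the brightest probe. COL6A6, COL12A1, COL16A1, COL20A1, COL22A1, COL27A1, ITGA4, ITGA10, ITGA11, NID1, DDR1, HSD17B3, CYP11B1, EGFL7 and KDR were added after their values were seen. A gene that enters the counts and medians is not reported here. The members and lists were chosen with earlier results of these data known.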

Additional observations from a re-analysis of the deposited data

How the results depend on the processing

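No paired analysis was possible because each group has 1 array, and no array could be left out. The median difference of the set stayed between -0.16 and -0.38 under every alternative tried, against -0.24. It stood at -0.25 with a shift by the median and -0.27 with the 75th percentile over probes above background on both arrays. It was -0.23 with quantile normalization and -0.25 with the authors' log2 values. Each of these gave the counts of 5 higher and 6 lower, and the share of all names is not given for them. Normexp background correction gave 2 higher and 2 lower (each 3.08%, against 4.28% and 0.739% of all names). A threshold of log2 1 gave 8 higher and 14 lower (12.3% and 21.5%, against 13.1% and 9.10% of all names), and a linear fold of 1.5 gave 11 and 28 (16.9% and 43.1%, against 21.7% and 22.5%). With only genes above background on both arrays, 2 were higher and 4 lower (3.39% and 6.78%, against 6.52% and 1.78%). The mean of all detected probes of a gene, with dim sides at their bound, gave 2 higher and 1 lower. These are COL9A3 and COL13A1, each with 1 detected probe, and COL6A6 (1.54), which was not past the threshold before. Of all names 5.98% were then higher and 1.82% lower, and the share of lower members (1.54%) no longer exceeded that of all names. Every probe counted for itself gave 13 lower.

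Chosen after seeing the data, the probe with the highest mean of both arrays gave 3 higher and 7 lower, and COL11A1 then stood at -1.68 in place of its bound. Leaving out the probes with the triple-helix motif, likewise chosen later, also brought COL11A1 to -1.68, with 4 higher and 7 lower. In both cases another COL11A1 probe is read. The share of all names past the threshold is not given for these choices, so their counts cannot be read against a background. Of 119 values of the 11 genes past the threshold under the alternatives, 100 moved by less than the spread between spots, 17 by more with the same sign, and the other 2 are those of COL11A1. Where the probe read was dim on 1 array, these values use the dim value itself, except with the mean of probes, which uses the bound. Some of the alternatives shift all genes alike, and such values are no separate check of a gene. COL13A1 has no value without the spots of the dark patch. Signal close to background limits COL11A1, COL20A1, COL21A1, ITGB3 and ITGB6, whose representative probe was dim on 1 array.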

Other observations

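Genes of the same families also occur on the array under transcript or LOC names, which the rule does not take, and their descriptions name the gene. Of 22 such probes 10 were above background on both arrays, with a median of -0.50, and 6 of them were lower in crossbred. A collagen XXI probe differed by -2.27, the direction of the COL21A1 bounds. A second collagen IV alpha 5 probe differed by -1.22, beside -0.89 for COL4A5, and a collagen IV alpha 4 probe by -0.43. Collagen VI alpha 3, the partner of COL6A1 and COL6A2, had 1 measured probe at -0.80. The integrin alpha 8 probe, of a subunit known from smooth muscle, differed by -0.60, and the laminin gamma 3 probes by -0.57 and 0.01. Probes of type IX collagen alpha 1 (0.60), collagen XI alpha 2 (0.16) and laminin alpha 5 (0.14) were higher, and a collagen XIV probe, dim in Zebu, gave at least 2.83-fold higher. Probes described as collagen V alpha 1 and laminin alpha 3 were above background on neither array. These probes were chosen after their values were seen.

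Collagens better known from cartilage than from testis went both ways. COL9A3 was higher (2.58), COL2A1 was higher in all 3 measured probes (0.22 to 0.81) and COL11A2 differed by 0.71. COL9A2, the partner of COL9A3 in collagen IX, differed by -0.82, and COL11A1 was higher by the bounds of 2 probes but lower by -1.68 and -1.62 in the 2 probes measured on both arrays. ACAN, the cartilage proteoglycan, differed by -0.03. These genes were put together after their values were seen, and no list of cartilage genes was tested.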
